A study of Mus musculus with 21 samples.

Results

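Activator protein 1 (AP-1) is a family of basic leucine zipper transcription factors that bind DNA as pairs. The 10 genes described here are the Fos family (Fos, Fosb, Fosl1 and Fosl2), the Jun family (Jun, Junb and Jund) and the related factors Atf3, Batf3 and Jdp2. They were taken by symbol from a deposited table of 20900 genes, and all 10 had a row. Fosl1 was chosen by its measured log2 values at 2 h, which were among the largest rises over the control in the table. It ranked 4 of the 14666 genes tested after BMH-21 and 2 after CX-5461. Differences from the control at 2 h are therefore given as a description, with no test, for all members. Calls against the control at 2 h are counted without Fosl1 beside those of all genes, and nothing is read from them. No test result is given for Fosl1 that uses its 2 h values. Fits with those values enter the totals, counts, sign changes and ranges in the closing section on processing. The plot of the inhibitors also draws an interval for Fosl1 at 2 h, as a description. The other 9 genes were listed by family, with earlier results of these data known.

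Poly(A) RNA was sequenced from the E14 line of mouse embryonic stem cells, derived from the 129 strain grown in serum with leukaemia inhibitory factor. The 7 groups of 3 libraries were untreated cells (control, 0 h) and cells after 2, 4 or 8 h in medium with 1 µM BMH-21 or 1 µM CX-5461. Both compounds inhibit RNA polymerase I, which transcribes the ribosomal DNA. All groups are the same line, and the labels name no genetic change. The inhibitor came with a change of medium and the only untreated cells were those at 0 h, so effects of time or of new medium and effects of the inhibitor cannot be told apart. Nothing in the labels says whether the 3 replicates were separate cultures, so p-values measure the spread between these libraries, which may be technical. Each library held 46604397 to 62812641 reads, and a log2 value of 0 stood for 42 to 86 reads. The 7 stem cell markers checked (Pou5f1, Nanog, Sox2, Zfp42, Esrrb, Dppa5a and Tdgf1) had at least 5282 reads in every library.

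Fos proteins need a Jun partner to bind DNA, whereas Jun proteins also pair with themselves and with factors such as ATF3 and JDP2. The pairs bind the sequence TGACTCA or the related TGACGTCA, and which pair is bound sets how strongly a target gene is switched on or held back. Several members are immediate early genes, whose mRNA appears soon after growth signals or stress without new protein synthesis. The kinases JNK and p38, which respond to stress, phosphorylate JUN and other members.

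The RefSeq promoter table (GRCm38.p6, the mm10 build) held 9 of the 10 members in 11 entries, and Fosl1 had none. The 250 bases before the start site are shown for Fos, Jun and Atf3, as examples of members with a searched motif. Capitals mark the letters searched for on both strands: TGACGT in Fos, on the minus strand in Atf3 (printed as its complement), TGACATCA in Jun, and TATAAA in Fos.
Fos, chr12:85473640-85473889, plus strand: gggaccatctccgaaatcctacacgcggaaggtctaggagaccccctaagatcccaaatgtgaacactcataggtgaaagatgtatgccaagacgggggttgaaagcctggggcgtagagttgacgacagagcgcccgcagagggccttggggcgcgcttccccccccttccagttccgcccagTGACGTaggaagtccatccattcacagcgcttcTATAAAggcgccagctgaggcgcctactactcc
Jun, chr4:95052223-95052472, minus strand: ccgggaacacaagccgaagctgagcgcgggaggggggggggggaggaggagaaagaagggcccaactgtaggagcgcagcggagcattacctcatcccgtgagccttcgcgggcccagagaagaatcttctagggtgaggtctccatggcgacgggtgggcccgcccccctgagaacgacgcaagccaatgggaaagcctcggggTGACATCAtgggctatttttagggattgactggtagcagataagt
Atf3, chr1:191183334-191183583, minus strand: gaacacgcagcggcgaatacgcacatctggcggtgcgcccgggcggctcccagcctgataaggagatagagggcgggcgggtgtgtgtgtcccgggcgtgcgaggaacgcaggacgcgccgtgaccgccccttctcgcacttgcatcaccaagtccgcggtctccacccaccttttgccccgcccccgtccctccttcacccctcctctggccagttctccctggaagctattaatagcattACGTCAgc
In Fos the TGACGT began 66 bases and the TATAAA 33 bases before the start site. In Jun the TGACATCA began 45 bases before it, and in Atf3 the match lay 8 bases before it. One of the 3 entries of Jdp2 also held TGACGT, so 3 of 11 entries had these letters, against 6.47% of all 32851 promoters of the same length. TGACATCA was in 1 of 11 entries and in 2.93% of promoters, and TATAAA in 1 of 11 and in 12.4%. TGACTCA (4.46% of promoters), TGACGTCA (1.55%; it contains TGACGT) and the CArG box bound by SRF (1.47%) were in 0 of 11. These are matches of letters in a short window. Sites farther from the start site, of SRF or any other factor, were not searched, and no binding was measured. The RefSeq start sites do not all match the gene positions given below. The Jund entry (chr8:70697489-70697738) ends before the gene start at 70698949, and the Atf3 entry lies inside the gene span.

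Fosl1 encodes FRA1, a Fos protein that lacks the strong activating end of FOS. The gene lies at chr19:5447547-5455946 on the plus strand (GENCODE M21, mm10), with 4 exons in its longest transcript. In the 3 control libraries its log2 values were -2.85, -1.75 and -1.71, which were 6, 13 and 14 reads. After 2 h they were 1.58, 1.86 and 1.94 under BMH-21 and 2.04, 1.55 and 1.56 under CX-5461, from 141 to 175 and from 169 to 173 reads. All 6 libraries at 2 h thus lay above all 3 of the control, by a mean of 3.90 (14.9-fold) and 3.82 (14.1-fold).

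After 4 h Fosl1 stood at 3.92, 3.61 and 3.51 under BMH-21 and at 3.07, 3.14 and 3.04 under CX-5461. These were its highest values with either inhibitor. After 8 h it was at 3.13, 2.74 and 3.30 under BMH-21 and at 1.70, 1.76 and 1.22 under CX-5461. At both times every BMH-21 library lay above every CX-5461 library.

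Between 4 and 8 h Fosl1 fell with both inhibitors, by 0.62 ± 0.17 (SE; limma adjusted p = 0.0012) under BMH-21 and by 1.53 ± 0.17 (adjusted p = 1.4e-13) under CX-5461. The fall under BMH-21 missed the threshold with median-ratio scaling (-0.45). Against the control, Fosl1 was 5.78 ± 0.17 (SE) higher at 4 h and 5.16 ± 0.17 higher at 8 h of BMH-21, and 5.19 and 3.66 higher under CX-5461. These differences share the control libraries with the 2 h values that chose the gene, so they are given without a p. The replicates of Fosl1 had an SD of 0.33 around their group means, above the 0.21 that limma used after pooling genes, so its p-values may be too small. The SD was largest in the control (0.65) and ran from 0.05 to 0.30 in the treated groups, which are those the p-values compare.

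Fos, the founding member and an immediate early gene, lies at chr12:85473890-85477273 on the plus strand. Its log2 values were 1.94, 2.10 and 1.76 in the control. After 2, 4 and 8 h of BMH-21 they were 3.67, 4.08 and 4.00, then 4.83, 4.58 and 4.66, then 4.51, 4.30 and 4.60. With CX-5461 they were 4.01, 3.73 and 3.86, then 3.76, 4.04 and 3.67, then 3.68, 3.48 and 3.59. Every treated library lay above every control library. Fos was therefore still high after 8 h, and under CX-5461 its libraries at 2 and 4 h overlapped.

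Against the control Fos rose by 2.76 ± 0.12 (6.79-fold; adjusted p = 8.2e-45) at 4 h and by 2.54 ± 0.12 (5.82-fold; 1.6e-41) at 8 h of BMH-21. With CX-5461 it rose by 1.89 ± 0.12 (3.71-fold; 7.3e-30) and 1.65 ± 0.12 (3.14-fold; 3.4e-25). From 2 to 4 h it rose further under BMH-21 (0.78, adjusted p = 1.5e-08), whereas under CX-5461 the difference was -0.04 (95% interval -0.28 to 0.19). From 4 to 8 h the differences were -0.22 and -0.24, and neither passed the threshold. On libraries centred on their median both passed, at -0.16 and -0.61. With median-ratio scaling the fall under CX-5461 passed (-0.61) and that under BMH-21 did not.

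Fosb, whose protein is close to FOS, lies at chr7:19302696-19310051 on the minus strand and was near the limit of the test, with 25 to 113 reads in all libraries. Its control values were -0.40, -0.13 and -0.89. With CX-5461 all 9 libraries lay between 0.46 and 0.91, above the control. With BMH-21 the values ran from 0.09 to 0.95 at 2 and 4 h and were 0.42, -0.31 and 0.36 at 8 h, where 1 library overlapped with the control. Fosb rose at 4 h by 1.21 ± 0.22 under BMH-21 (adjusted p = 5.5e-07) and by 1.26 ± 0.22 under CX-5461 (2.1e-07). The difference at 8 h of CX-5461 was 1.13 (4.4e-06). That at 8 h of BMH-21, 0.63 (adjusted p = 0.006), did not pass without BMH-21 8 h replicate 1 (0.50), without control replicate 3 (0.42) or with values below 0 set to 0 (0.26).

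Fosl2 encodes FRA2, the other Fos protein without the strong activating end, at chr5:32135801-32157842 on the plus strand. The control values were 1.30, 1.01 and 1.31. At 2 h they were 1.79, 1.83 and 2.03 under BMH-21 and 1.43, 1.51 and 1.20 under CX-5461, and only the CX-5461 libraries overlapped with the control. At 4 h they were 2.40, 2.22 and 2.14 and 1.83, 2.01 and 1.80. At 8 h they reached 4.27, 3.98 and 4.46 under BMH-21 and 3.70, 3.78 and 3.94 under CX-5461. The main rise of Fosl2 thus came after 4 h with both inhibitors, when Fosl1 fell. The step from 4 to 8 h was 1.99 ± 0.14 (3.97-fold; adjusted p = 8e-26) under BMH-21 and 1.93 ± 0.14 (3.80-fold; 1.7e-24) under CX-5461. At 8 h Fosl2 was 3.03 and 2.60 above the control (adjusted p = 3.6e-43 and 2e-36), and at 4 h 1.04 and 0.67 (4.2e-11 and 1.1e-05).

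**Figure D1:**
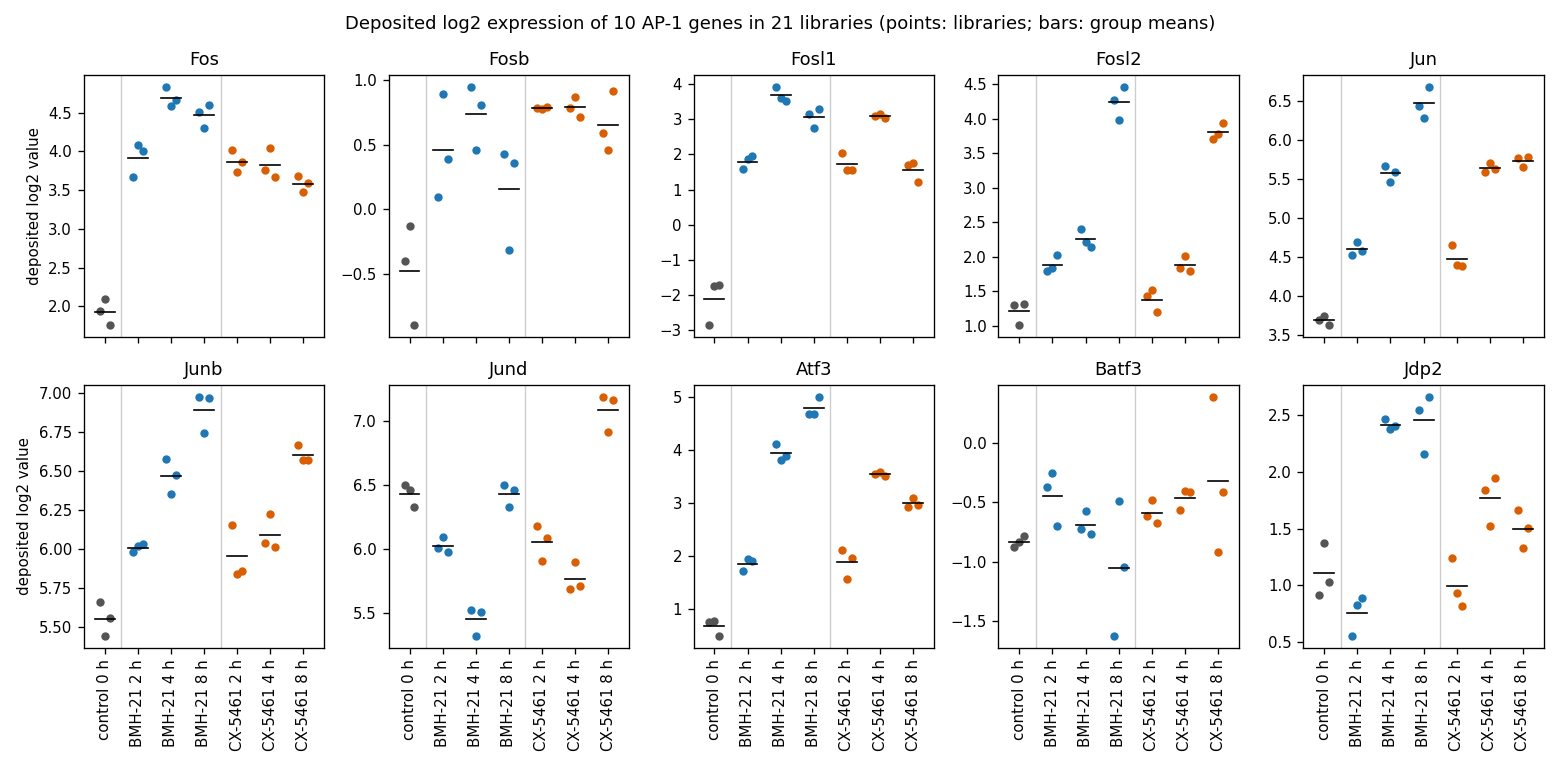
Deposited log2 values of the 10 genes (vertical axes, log2 scale, different range in each panel) in the 7 groups, with 1 point per library and a bar at each group mean of 3. Fosl1 peaks at 4 h, Fosl2 is highest at 8 h, Jund dips at 4 h, and Batf3 lies above 0 in 1 of 21 libraries.

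Jun, the most studied Jun protein and a substrate of JNK, is a gene of 1 exon at chr4:95049034-95052222 on the minus strand. The control values were 3.69, 3.75 and 3.63. With BMH-21 they were 4.53, 4.70 and 4.58 at 2 h, 5.67, 5.46 and 5.58 at 4 h, and 6.43, 6.28 and 6.68 at 8 h. With CX-5461 they were 4.65, 4.40 and 4.39, then 5.59, 5.70 and 5.63, then 5.77, 5.65 and 5.78. Jun thus climbed at each time under BMH-21, and under CX-5461 its 8 h libraries overlapped with those at 4 h. Against the control it rose by 1.88 ± 0.11 (3.68-fold; adjusted p = 5.1e-33) and 2.77 ± 0.11 (6.84-fold; 3.7e-49) at 4 and 8 h of BMH-21. With CX-5461 it rose by 1.95 ± 0.11 (3.86-fold; 2.9e-34) and 2.04 ± 0.11 (4.12-fold; 6.6e-36). From 4 to 8 h the step was 0.89 under BMH-21 (adjusted p = 7.6e-12). With CX-5461 it was 0.09 (95% interval -0.13 to 0.31), and on centred libraries -0.28 with the opposite sign.

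Junb, often counted as a weaker activator than JUN, is a gene of 1 exon at chr8:84974484-84978718 on the minus strand. It was already abundant, at 5.66, 5.44 and 5.56 in the control. After 8 h it was at 6.97, 6.74 and 6.97 under BMH-21 and at 6.67, 6.57 and 6.57 under CX-5461. No treated library overlapped with the control at any time. It rose by 0.92 at 4 h and 1.34 at 8 h of BMH-21 (adjusted p = 2.6e-13 and 7e-23) and 0.54 and 1.05 under CX-5461 (5.5e-06 and 5.2e-16), each ± 0.11.

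Jund, a Jun gene that resting cells already express, is a gene of 1 exon at chr8:70698949-70700616 on the plus strand and moved the other way first. The control values were 6.50, 6.46 and 6.32. At 4 h they were 5.52, 5.33 and 5.51 under BMH-21 and 5.69, 5.90 and 5.71 under CX-5461, all below the control. At 8 h they were 6.50, 6.33 and 6.46 under BMH-21 and 7.18, 6.91 and 7.16 under CX-5461. Jund fell by 0.98 ± 0.11 (adjusted p = 1.4e-14) at 4 h of BMH-21 and by 0.66 ± 0.11 (4e-08) at 4 h of CX-5461. It then rose from 4 to 8 h by 0.98 (5.1e-14) and 1.32 (6.7e-21). At 8 h of BMH-21 it stood 0.00 from the control (95% interval -0.21 to 0.21), and on centred libraries 0.21 above it, which passed the threshold. At 8 h of CX-5461 it was 0.66 above the control (7.8e-08).

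Atf3, a stress-induced factor that pairs with Jun proteins or with itself and often represses, lies at chr1:191170296-191218039 on the minus strand. The control values were 0.74, 0.77 and 0.49. With BMH-21 they were 1.72, 1.94 and 1.90 at 2 h, 4.11, 3.81 and 3.90 at 4 h, and 4.69, 4.69 and 5.00 at 8 h. With CX-5461 they were 2.11, 1.56 and 1.97, then 3.55, 3.59 and 3.52, then 2.92, 3.09 and 2.97. All treated libraries lay above the control, and the groups at 2, 4 and 8 h did not overlap within either inhibitor. Atf3 rose by 3.27 ± 0.13 (9.66-fold; adjusted p = 1.5e-48) at 4 h and 4.13 ± 0.13 (17.5-fold; 2.3e-59) at 8 h of BMH-21. With CX-5461 it rose by 2.88 (7.38-fold; 4.9e-43) and 2.33 (5.02-fold; 2.7e-34), so the value at 8 h was the lower one. The step from 4 to 8 h was a rise of 0.85 under BMH-21 (1.4e-08) and a fall of 0.56 under CX-5461 (0.00014).

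Jdp2, which pairs with Jun proteins and represses, lies at chr12:85599027-85639878 on the plus strand, 121753 bases from Fos. The control was at 0.92, 1.37 and 1.03, and the 2 h libraries were at 0.55, 0.83 and 0.88 under BMH-21 and 1.24, 0.93 and 0.81 under CX-5461. At 4 h they were 2.47, 2.38 and 2.40 and 1.84, 1.52 and 1.95, and at 8 h 2.55, 2.15 and 2.66 and 1.66, 1.33 and 1.50. Jdp2 rose by 1.31 and 1.35 at 4 and 8 h of BMH-21 (adjusted p = 3.4e-12 and 5e-13) and by 0.67 at 4 h of CX-5461 (0.00018), each ± 0.16. At 8 h of CX-5461 it was 0.39 higher (adjusted p = 0.037), with 1 library below the highest control library. That call was lost on centred libraries (0.18), with median-ratio scaling (0.28), with no filter on low genes or voom weights (0.39 in both), and without control replicate 1 (0.30), control replicate 3 (0.35), CX-5461 8 h replicate 1 (0.31) or CX-5461 8 h replicate 3 (0.39).

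Batf3, a small factor that pairs with Jun proteins and is best known from dendritic cells, lies at chr1:191097847-191108945 on the plus strand, 61350 bases from Atf3. It had 19 to 64 reads in all libraries and passed a log2 value of 0 in 1 of 21, at CX-5461 8 h replicate 1 (0.38). It was below the filter for testing. Its group means ran from -1.05 at 8 h of BMH-21 to -0.32 at 8 h of CX-5461, with SDs of 0.57 and 0.66, beside -0.83 ± 0.05 in the control.

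Of the 8 members tested other than Fosl1, 7 were called higher and 1 lower at 4 h of BMH-21. Over all genes tested 22.1% were called higher and 44.9% lower. At 8 h of BMH-21 the counts were 7 and 0, against 24.5% and 56.9%. At 4 h of CX-5461 they were 7 and 1, against 19.8% and 51.2%, and at 8 h 8 and 0, against 35.1% and 14.3%. With a difference of at least 2-fold, and with Fosl1 counted, 7 and 7 of 9 members were higher at 4 and 8 h of BMH-21 (11.4% and 14.4% of genes). The counts were 5 and 7 under CX-5461 (10.5% and 13.4%). The median difference of the 9 members, with Fosl1, was 1.31 and 2.54 at 4 and 8 h of BMH-21 and 1.26 and 1.65 under CX-5461. The median over all genes was -0.21 and -0.40, and -0.28 and 0.11. The calls at 2 h, from which nothing is read, are counted without Fosl1. Of 8 others, 6 were called higher and 1 lower under BMH-21 (8.48% and 11.2% of genes), 5 and 1 under CX-5461 (7.45% and 20.5%). Fosl1 is in the 2-fold counts and in the medians, and its choice made it likely to be high there.

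**Figure D2:**
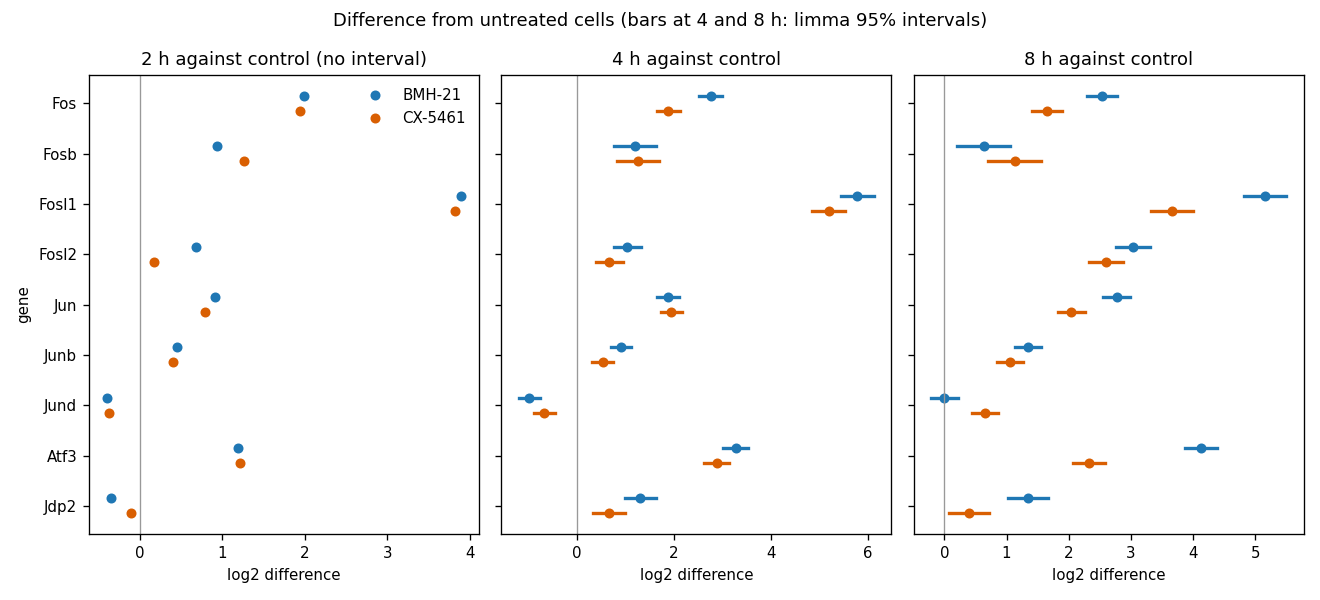
Difference of each of the 9 tested genes from the untreated cells (horizontal axis, log2 units, a different range in each panel) at 2, 4 and 8 h, with 95% intervals from limma at 4 and 8 h and none at 2 h. Fosl1 has the largest difference in all 3 panels with either inhibitor, Jund is below 0 at 2 and 4 h, and at 8 h Atf3 differs between the inhibitors, at 4.13 and 2.33.

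The values moved with the scaling of the libraries. Centring each library on its median took out a shift of -0.08, -0.15 and -0.21 at 2, 4 and 8 h of BMH-21 and of -0.15, -0.16 and 0.22 under CX-5461. The calls against the control at 4 and 8 h that this changed are those of Jund and Jdp2 given above. Reads of a gene that overlaps another may be shared, since the use of strand in counting is not given in the sources used here. Fosl1 overlaps Ccdc85b on the other strand, whose differences from the control were -0.39 (4 h) and -0.79 (8 h) for BMH-21, -0.44 and 0.12 for CX-5461. Junb overlaps Prdx2, which stood at -0.07 and -0.47, and at -0.27 and 0.01. Jun and Jund overlap antisense genes that were not analysed here.

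The inhibitors were compared at the same dose and time. At 2 h 1 of the 8 members tested differed: Fosl2 was 0.50 ± 0.14 higher under BMH-21 (adjusted p = 0.016), where 2.47% of all genes were called higher and 1.52% lower. That call was lost with no filter on low genes, with voom weights, and without BMH-21 2 h replicate 3 (0.43) or CX-5461 2 h replicate 3 (0.41). Fosl1 was not tested here, and its interval in the plot of the inhibitors is a description. The 95% intervals of the other members at 2 h all held 0: -0.19 to 0.29 for Fos, -0.16 to 0.27 for Junb, -0.25 to 0.18 for Jund and -0.29 to 0.23 for Atf3. They were wider or less centred for Jun (-0.10 to 0.34), Jdp2 (-0.56 to 0.08) and Fosb (-0.76 to 0.11).

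At 4 h 6 members were higher under BMH-21 and Jund was lower, where 9.35% and 8.49% of genes were called. The largest difference was that of Fos, 0.87 ± 0.12 (1.83-fold; adjusted p = 6e-09), followed by Jdp2 at 0.65 (0.0019). Fosl1 differed by 0.59 (0.0077), Atf3 by 0.39 (0.026), Junb by 0.38 (0.0065) and Fosl2 by 0.37 (0.046), and Jund by -0.31 (0.028). The intervals were -0.29 to 0.15 for Jun and -0.49 to 0.38 for Fosb. Of these calls, those of Fos and Jdp2 held without any 1 library, and with no filter on low genes those of Fosl1, Atf3 and Fosl2 were lost. Those of Fosl1 and Fosl2 were also lost with no variance trend, that of Fosl1 with median-ratio scaling (0.52), that of Fosl2 with voom weights, and those of Fosl2 and Jund with only the groups compared. That of Fosl1 was lost without BMH-21 4 h replicate 1 (0.47), that of Junb without CX-5461 4 h replicate 3 (0.34), and that of Atf3 without BMH-21 4 h replicate 1 (0.30) or CX-5461 4 h replicate 1 (0.39) or 3 (0.37). That of Fosl2 was lost without BMH-21 4 h replicate 1 (0.30) or 2 (0.39) or CX-5461 4 h replicate 1 (0.35) or 3 (0.33). That of Jund was lost without BMH-21 4 h replicate 2 (-0.25) or CX-5461 4 h replicate 2 (-0.25) or 3 (-0.34).

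At 8 h 7 members were higher under BMH-21, where 12.0% of genes were called higher and 67.2% lower. Atf3 differed by 1.80 ± 0.13 (3.48-fold; adjusted p = 5.2e-25), Fosl1 by 1.50 ± 0.17 (2.82-fold; 9.7e-14), Jdp2 by 0.96 (1.1e-07), Fos by 0.89 (1e-10) and Jun by 0.73 (3.2e-09). Fosl2 differed by 0.43 (0.0032) and Junb by 0.29 (0.011). The call of Fosl2 was lost without BMH-21 8 h replicate 3 (0.32), and that of Junb without BMH-21 8 h replicate 1 (0.25) or 3 (0.25). Jund, at -0.65 (4.1e-08), and Fosb, at -0.50 (0.031), were lower under BMH-21. The call of Fosb was lost on centred libraries (-0.07) and without BMH-21 8 h replicate 2 (-0.26) or CX-5461 8 h replicate 3 (-0.37). Centring removed a shift of -0.43 between the inhibitors at 8 h, which left the 7 positive differences larger and Jund at -0.23.

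**Figure D3:**
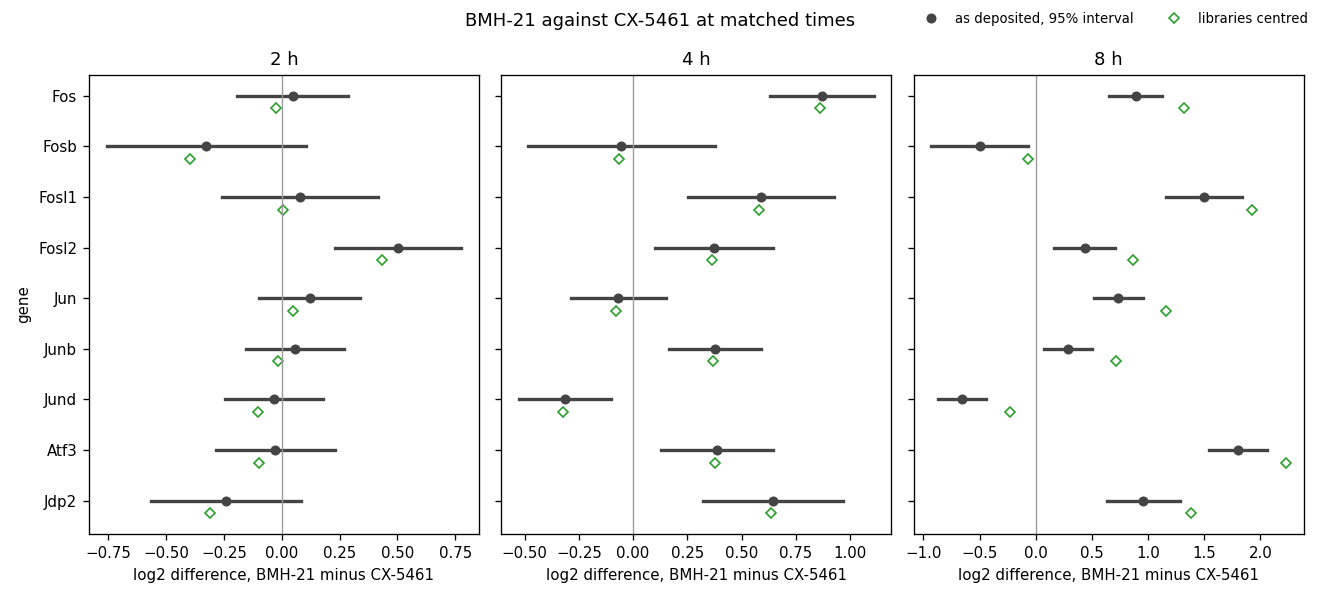
Difference between the inhibitors (horizontal axis, BMH-21 minus CX-5461, log2 units, a different range in each panel) for 9 genes at 2, 4 and 8 h, with limma's 95% interval and, as open diamonds, the difference on centred libraries. The interval of Fosl1 at 2 h is a description. Among the genes tested at 2 h only the interval of Fosl2 leaves out 0, and at 8 h Atf3 and Fosl1 lie farthest to the right, at 1.80 and 1.50.

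The steps in time can be read over all members. From 2 to 4 h of BMH-21, Atf3 rose by 2.09, Jdp2 by 1.66, Jun by 0.97, Fos by 0.78, Junb by 0.46 and Fosl2 by 0.37, and Jund fell by 0.57. Fosl1 was 1.88 higher at 4 h than at 2 h, with no test since its 2 h values chose it. Of the 8 others tested, 6 were higher and 1 lower, where 20.8% and 34.8% of genes were. The call of Fosl2 was lost without BMH-21 2 h replicate 1 (0.32) or 2 (0.34) or BMH-21 4 h replicate 1 (0.30). From 2 to 4 h of CX-5461, Atf3 rose by 1.67, Jun by 1.16, Jdp2 by 0.78 and Fosl2 by 0.50, and Junb differed by 0.14 (95% interval -0.07 to 0.35). Fosl1 was 1.37 higher, with no test. Jund fell by 0.29, a call lost without CX-5461 2 h replicate 1 (-0.23) or 3 (-0.28) or CX-5461 4 h replicate 1 (-0.25) or 3 (-0.27). That made 4 of 8 higher and 1 lower, where 20.7% and 26.8% of genes were.

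From 4 to 8 h of BMH-21, Fosl2 rose by 1.99, Jund by 0.98, Jun by 0.89, Atf3 by 0.85 and Junb by 0.42, where 18.6% of genes were higher. Fosl1 fell by 0.62 and Fosb by 0.58, where 37.8% of genes were lower. The fall of Fosb was lost without BMH-21 4 h replicate 1 (-0.47) or BMH-21 8 h replicate 2 (-0.34) and with median-ratio scaling (-0.40). Jdp2 differed by 0.04 (95% interval -0.28 to 0.36). From 4 to 8 h of CX-5461, Fosl2 rose by 1.93, Jund by 1.32 and Junb by 0.51, where 58.8% of genes were higher. Fosl1 fell by 1.53 and Atf3 by 0.56, where 4.85% of genes were lower. Jdp2 differed by -0.27 (-0.60 to 0.05) and Fosb by -0.13 (-0.57 to 0.30). On centred libraries 6 members instead of 2 were lower in this step, the others being Fos (-0.61), Jun (-0.28), Fosb (-0.51) and Jdp2 (-0.65), where 32.0% of all genes were lower.

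The difference between the steps of the inhibitors was itself tested, as BMH-21 minus CX-5461. From 2 to 4 h it passed for 2 members, Fos (0.82) and Jdp2 (0.89), where 3.33% of all genes passed. The step from 4 to 8 h passed for 4, Atf3 (1.41), Fosl1 (0.91), Jun (0.80) and Jund (-0.34), where 69.4% of all genes passed. These counts depended on the scaling. On centred libraries 4 of the 8 members tested passed from 2 to 4 h, with Junb (0.38) and Atf3 (0.48) added, where 16.8% of genes passed. For the later step 7 of 9 passed on centred libraries and 8 of 9 with median-ratio scaling, all of them higher, where 60.2% and 57.8% of genes passed. Added on centred libraries were Fos (0.45), Fosl2 (0.50), Junb (0.35) and Jdp2 (0.75), and Jund (0.10) did not pass.

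Levels of different genes were compared per kb of the longest annotated transcript, on the log2 scale. In the control the order was Jund (5.69 ± 0.09, SD, n = 3), Junb (4.70 ± 0.11), Jun (2.02 ± 0.06), Fos (0.86 ± 0.17), Jdp2 (0.39 ± 0.24), Atf3 (-0.32 ± 0.16), Batf3 (-0.98 ± 0.05), Fosl2 (-1.50 ± 0.17), Fosb (-2.39 ± 0.39) and Fosl1 (-3.00 ± 0.65). Only the ranges of Fosb and Fosl1 overlapped between neighbours. At 8 h of BMH-21 Junb (6.04 ± 0.13) stood above Jund (5.69 ± 0.09), followed by Jun (4.79 ± 0.20), Atf3 (3.81 ± 0.18) and Fos (3.40 ± 0.15), with no overlap between neighbours. Fosl1 (2.16 ± 0.29), Jdp2 (1.74 ± 0.27) and Fosl2 (1.53 ± 0.24) followed and each overlapped with the next, and Batf3 and Fosb were last. At 8 h of CX-5461 Jund (6.35 ± 0.15) remained above Junb (5.75 ± 0.06), followed by Jun (4.06 ± 0.07), Fos (2.51 ± 0.10), Atf3 (2.01 ± 0.09) and Fosl2 (1.10 ± 0.12). Jdp2 (0.78 ± 0.17) and Fosl1 (0.66 ± 0.30) overlapped. Fosl1 thus went from the lowest level of the 10 in the control to places 6 and 8. In bulk RNA, more RNA per cell and more cells with the RNA cannot be told apart.

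**Figure D4:**
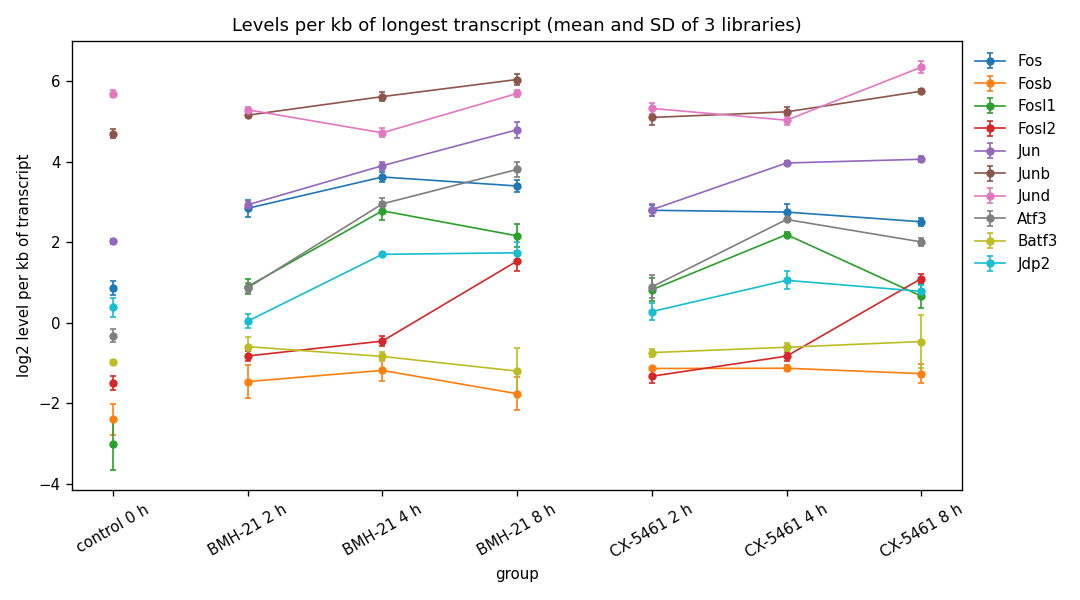
Level of the 10 genes per kb of their longest annotated transcript (vertical axis, log2) in the 7 groups, as mean and SD of 3 libraries, with lines joining the times of 1 inhibitor. The 3 Jun genes are at the top in every group, Atf3 passes Fos at 8 h of BMH-21 only, and Fosl2 rises from 4 to 8 h with both inhibitors.

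Across the 21 libraries the members fell into different time patterns, given here as descriptions since the libraries share groups and scaling. Jun and Atf3 had a Pearson r of 0.97, Fos and Fosl1 of 0.95, Jun and Junb of 0.93, and Fosl2 and Junb of 0.91. Jund was at -0.44 with Fosl1 and at 0.51 with Fosl2. Among the 5767 other genes whose group means spanned at least 1 log2 unit, the 5 most like Fosl1 were Hyal1 (0.987), Ddit4l (0.986), Trim11 (0.986), Nat6 (0.982) and Lpin1 (0.981). Those like Fos included Mdm2 (0.986), Neurod1 (0.986), Ccng1 (0.980) and 9230114K14Rik (0.979). For Jun they were Adam8 (0.992), D630023F18Rik (0.991), Sgsm2 (0.990), Slc4a11 (0.987) and Krt5 (0.986), and for Atf3 Tmbim1 (0.994), Arhgef4 (0.993), C1rb (0.990), Lmo1 (0.989) and Cercam (0.989). An r over 0.9 was found with 15.7% of these genes for Jun and with 14.1% for Atf3. For Fosl1 and Fos the shares were 2.83% and 1.82%.

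Genes that act on AP-1 or with it were called in both directions. Over all genes, 22.1% were higher and 44.9% lower at 4 h of BMH-21 and 24.5% and 56.9% at 8 h, and for CX-5461 the shares were 19.8% and 51.2%, then 35.1% and 14.3%. Of 9 other basic leucine zipper partners tested, 2 were higher and 5 lower at 4 h of BMH-21 and 2 and 6 at 8 h (median -0.72, all genes -0.40), which is near the shares of all genes. With CX-5461 the counts were 1 and 5, then 3 and 1. Mafk, a small MAF factor, rose by 1.70 at 4 h and 1.56 at 8 h of BMH-21 and by 1.19 and 0.84 under CX-5461. Ddit3, which encodes the stress factor CHOP, rose by 0.85 and 1.10 under BMH-21, and under CX-5461 it differed by 0.20, which did not pass, and rose by 0.33. Atf4, the main factor of the integrated stress response, fell by 1.70 and 1.16 under BMH-21 and by 1.19 and 0.52 under CX-5461. Creb1 fell by 1.01 and 1.18 under BMH-21 and by 0.73 at 4 h of CX-5461, and Mafg, another small MAF factor, by 0.87 and 1.06 under BMH-21.

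Of 13 kinases of the JNK and p38 cascades, 4 were higher and 4 lower at 4 h of BMH-21 and 5 and 5 at 8 h, against 22.1% and 44.9%, then 24.5% and 56.9%, of all genes. With CX-5461 5 and 4, then 7 and 1, were, against 19.8% and 51.2%, then 35.1% and 14.3%. The largest change was that of Zak, the kinase that senses stalled ribosomes, which rose by 2.75 and 2.79 under BMH-21 and by 2.80 and 2.19 under CX-5461. Mapk10, which encodes JNK3, rose by 0.71 and 0.89 and by 1.27 and 1.14. Map3k5, which encodes ASK1, rose by 0.77 and 0.73 and by 0.83 and 1.07. The median over the 13 was -0.07 at 8 h of BMH-21 and 0.32 at 8 h of CX-5461, beside -0.40 and 0.11 over all genes.

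Of the 4 phosphatases of JNK, 3 were higher and 1 lower at 8 h of BMH-21 (24.5% and 56.9% of all genes) and 4 higher at 8 h of CX-5461 (35.1%). Dusp8 rose by 0.48 and 2.13 under BMH-21 and by 1.17 and 1.67 under CX-5461. Dusp1, itself an immediate early gene, rose at 8 h by 1.37 and 1.41, and at 4 h differed by -0.23 under BMH-21, which did not pass, and by 0.44 under CX-5461. Dusp16 fell by 1.41 and 0.45 under BMH-21, and fell by 0.81 and then rose by 0.58 under CX-5461. Of the 4 ubiquitin ligase genes for JUN, 1 was higher and 3 lower at 4 h with either inhibitor (22.1% and 44.9% of all genes for BMH-21, 19.8% and 51.2% for CX-5461). Fbxw7, which encodes the part that recognises phosphorylated JUN, rose by 2.37 and 1.63 under BMH-21 and by 1.66 and 0.94 under CX-5461, and Det1, part of another JUN ligase, fell by 1.41 and 1.35 under BMH-21 and by 0.45 at 4 h of CX-5461. Of the 6 genes for SRF and its cofactors, which drive Fos in response to growth signals, 1 was higher and 1 lower at 4 h of BMH-21 and 0 and 3 at 8 h, and 0 and 2, then 3 and 0, under CX-5461. These stand beside the same shares of all genes, and none of the 6 differed from the control by 2-fold at 4 or 8 h.

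Of 10 known targets of AP-1 that were tested, 4 were higher and 4 lower at 4 h of BMH-21 and 4 and 3 at 8 h, against 22.1% and 44.9%, then 24.5% and 56.9%, of all genes. With CX-5461 2 and 5, then 4 and 2, were, against 19.8% and 51.2%, then 35.1% and 14.3%. Cd44, the receptor for hyaluronan, rose by 2.72 and 3.19 under BMH-21 and by 2.14 and 1.97 under CX-5461. Plau, which encodes urokinase, rose by 2.35 and 1.91 and by 1.97 and 1.51. Plaur, the receptor of urokinase, fell at 4 h by 1.65 under BMH-21 and by 0.72 under CX-5461, and at 8 h it was higher than in the control by 0.38 and 1.62. Hbegf, a ligand of the EGF receptor, fell by 1.57 and 1.23 under BMH-21 and by 0.82 at 4 h of CX-5461, and was 0.37 above the control at 8 h of CX-5461. Ccnd1, which encodes cyclin D1, fell by 1.23 and 1.87 under BMH-21 and by 1.22 and 0.30 under CX-5461, and Spp1 fell by 0.71 and 1.77 and by 1.16 and 0.71. Areg, Ereg, Mmp3 and Mmp13 were below the filter, and Mmp10 was not analysed here.

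**Figure D5:**
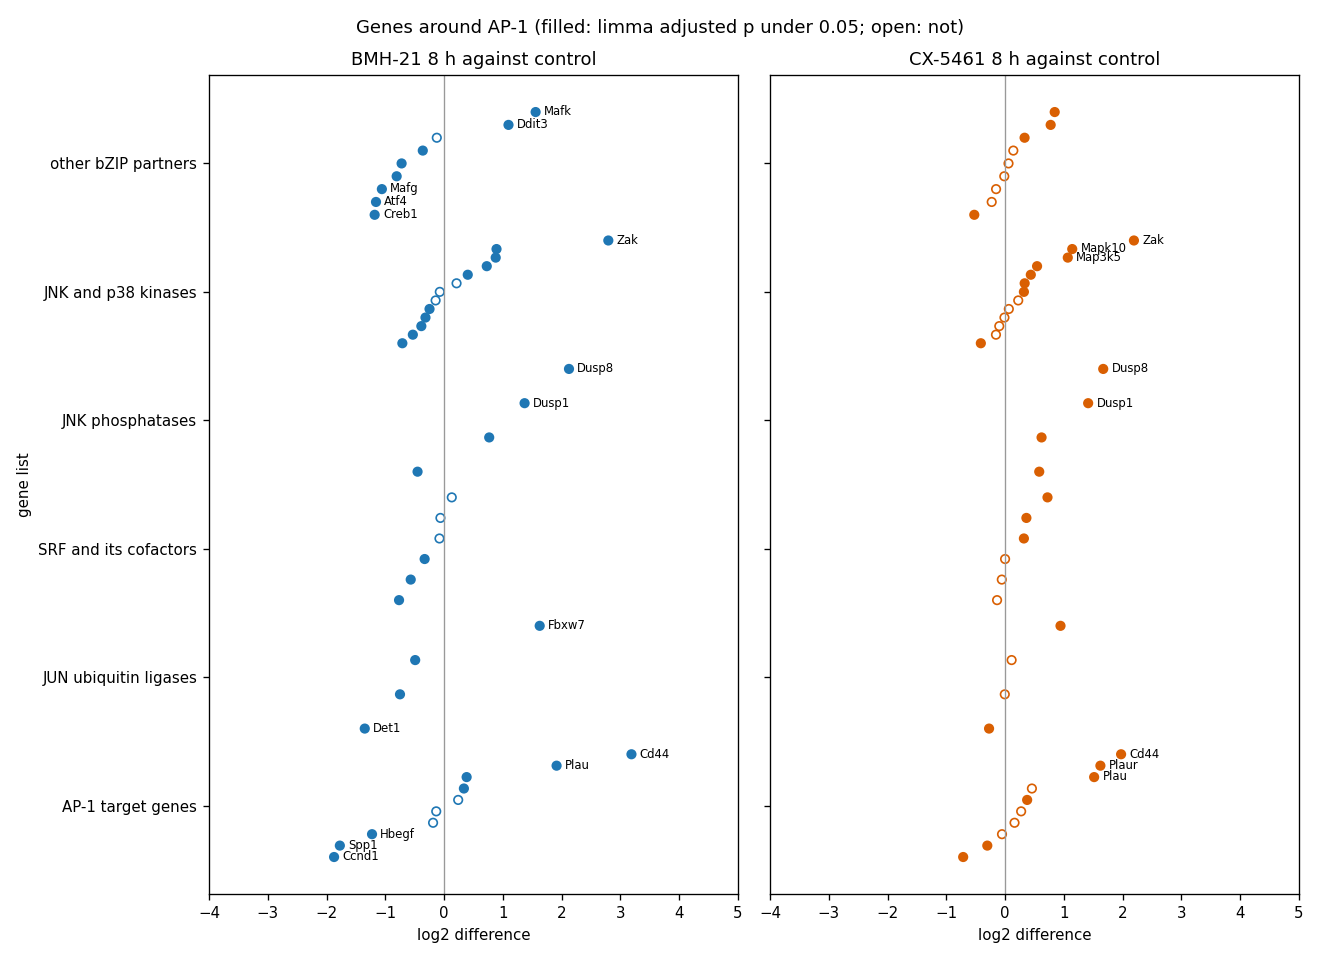
Difference from the untreated cells at 8 h (horizontal axes, log2 units) for the genes of 6 lists around AP-1, with filled points for an adjusted p under 0.05 and names at called differences of at least 1. Each list holds genes on both sides of 0 under BMH-21, and Zak, Cd44, Plau and Dusp8 lie far to the right with both inhibitors.

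Markers of other cell types were summed as CPM on the deposited scale, the recovered reads set to each library's deposited size. The factors in these sizes were 0.83 to 0.95 in the control. They were 1.21 to 1.38 at 8 h of BMH-21 and 0.89 to 0.94 at 8 h of CX-5461. A larger factor lowers every sum of its library, and the sums are not given on another scaling. The 5 trophoblast markers stood at 5.68 to 6.87 in the control, 57.4 to 65.5 at 8 h of BMH-21 and 30.3 to 33.1 at 8 h of CX-5461, led by Krt7, with Elf5 under a log2 value of 0 in every library. The 6 fibroblast markers stood at 30.2 to 34.5, 38.7 to 46.4 and 42.8 to 44.1, with Col3a1, Postn and Lum under 0 in every library. Their sum hides opposite changes. Of the 3 tested, 1 was called higher and 1 lower at 8 h of BMH-21, each by at least 2-fold (median 0.07). Over all genes 24.5% were called higher and 56.9% lower. The 5 primitive endoderm markers stood at 14.9 to 18.0, 10.2 to 12.5 and 17.4 to 17.7. Their sum also hides opposite changes, with 1 called higher and 3 lower at 8 h of BMH-21, against 24.5% and 56.9% of all genes. The 7 stem cell markers stood at 5582 to 6383 in the control, 2776 to 2930 at 8 h of BMH-21 and 5187 to 5555 at 8 h of CX-5461. Jun, Atf3 and Fosl2 had their highest means after 8 h of BMH-21. On the deposited scale the trophoblast and fibroblast sums in that group lay above the control range and the primitive endoderm and stem cell sums below it. After the same time in CX-5461 the trophoblast and fibroblast sums also lay above the control range and the stem cell sum below it, and the primitive endoderm sum lay inside it. The part of these sums in the values of the members was not tested.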

How the data were processed

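Libraries were prepared with a directional poly(A) kit, per the labels' protocols. The submitters' processing notes name Trim Galore 0.5.0, TopHat2 2.1.1, R 4.0.5, DESeq2 1.30.1, edgeR 3.32.1, limma 3.46.0 and mm10, with no roles. The counting program and its use of strand are not given in the sources used here. The authors deposited 1 table of log2 values, named as voom-normalized, for 20900 symbols and 21 libraries, with 0 columns left unmapped and 0 duplicate symbols. Taking each library's smallest value as 0 reads plus 0.5, all values returned whole reads to within 1.7e-08. Each value is thus the log2 of an offset read count set to a library size, whose factors (0.832 to 1.375) differed from median-ratio factors (0.941 to 1.107).

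Differences were tested two-sided with limma 3.58.1 in R 4.3.3, fitting 1 mean per group to the 21 libraries as deposited, with the prior variance following the mean level. The Benjamini-Hochberg adjustment covered 14666 genes, at a threshold of 0.05. Genes needed a log2 value above 0 in at least 3 libraries, and 6234 were set aside. The ± of a difference is its SE, and differences are on the log2 scale with the 0.5 offset, which understates changes of low genes. The 13 comparisons were 6 with the control, 3 between inhibitors and 4 between times. The 2 tests of whether a step in time differed between inhibitors were added after the data were seen. The prior carried 111.5 degrees of freedom against 14 from replicates. On centred libraries the prior carried 8.5, so the size of the p-values depends on the scaling. Replicate pairs differed by more than sampling noise (chi-square per degree of freedom 2.58 to 26.0). At this depth 3 reads were a log2 value of -4.63 to -3.59. Tested on simulated data for BMH-21 4 h against control, the fit recovered 100 of 100 genes changed 4-fold and 96 of 100 changed 2-fold, with 9 false calls. The simulation changed only 200 of 14666 genes. It drew the noise of each gene separately at the SD limma used, with no scaling error shared by a library. It thus checks the code and does not measure error rates in these data.

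The members and gene lists were chosen with earlier results of these data known. Named genes are the members, list genes called with at least 2-fold change against control at 4 or 8 h, and the 5 genes most correlated with each of Fosl1, Fos, Jun and Atf3, among genes tested with a mean of at least 0 and group means spanning at least 1. Genes overlapping a member were named after their positions were seen. 1 gene of the lists and 1 correlated gene are not reported here. Gene positions and transcript lengths come from GENCODE M21, promoters from RefSeq. Alternatives were 2 other scalings, 2 filters, a floor at 0, 2 variance models, a block by replicate number, fits restricted to the groups compared, and leaving out each library. Figures were drawn with matplotlib 3.10.9.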

Additional observations from a re-analysis of the deposited data

Results flagged for a closer look

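On the deposited scale, a step in time differed between BMH-21 and CX-5461 for 6 member genes, by a limma test of the difference between the 2 steps with Benjamini-Hochberg adjustment over 14666 genes. From 2 to 4 h, where 3.33% of all genes differed in this way, the step of Fos was 0.82 larger with BMH-21 (log2; adjusted p = 0.00057) and that of Jdp2 0.89 larger (adjusted p = 0.011). The call of Jdp2 was lost with no filter on low genes (0.89) and without CX-5461 2 h replicate 1 (0.76) or CX-5461 4 h replicate 2 (0.76). Fosl1 was not tested for this step. On centred libraries Junb (0.38) and Atf3 (0.48) passed as well.

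From 4 to 8 h, where 69.4% of all genes differed, Atf3 rose with BMH-21 and fell with CX-5461, a difference of 1.41 (adjusted p = 1.2e-10). All 3 BMH-21 libraries at 8 h lay above those at 4 h, and all 3 CX-5461 libraries below. Fosl1 fell with both inhibitors, and the difference between its steps was 0.91 (adjusted p = 0.00063). Jun had a difference of 0.8 (adjusted p = 5e-06). Jund had a difference of -0.34 (adjusted p = 0.04), which turned to 0.10 on centred libraries and 0.20 with median-ratio scaling. On centred libraries Fos (0.45), Fosl2 (0.50), Junb (0.35) and Jdp2 (0.75) passed as well, so which members differ depended on the scaling. The call of Jund was also lost without BMH-21 4 h replicate 1 (-0.30) or 3 (-0.31), BMH-21 8 h replicate 2 (-0.29), CX-5461 4 h replicate 1 (-0.30) or 3 (-0.31), or CX-5461 8 h replicate 1 (-0.29) or 3 (-0.30).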

How the results depend on the processing

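Of 1200 member differences under settings other than leaving out a library, 1135 kept direction and call, 25 lost the call, 25 gained it and 15 changed sign. Against the control at 4 and 8 h the counts were 313, 5, 2 and 0 of 320. Leaving out a library kept 846 of 918, with 44 lost, 2 gained and 26 changed in sign. The totals of 1200 and 918 include the comparisons at 2 h and those that use the 2 h values of Fosl1, from which nothing is read. The cause of these changes was not tested, except that fewer libraries give less precision. Of 1080 counts of list genes, 109 moved by over 1.5 times.

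Counts of members called, other than those against the control at 2 h, moved as follows. Higher in BMH-21 than in CX-5461 at 2 h went from 1 to 0 with no filter and with voom weights, and at 4 h from 6 to 3 with no filter. Lower at 4 h went from 1 to 0 with only the groups compared, and at 8 h from 2 to 1 with centring, median-ratio factors, the stricter filter or only the groups compared. Lower from 4 to 8 h of BMH-21 went from 2 to 0 with median-ratio factors and to 1 with the stricter filter, where Fosb was not tested. Lower from 2 to 4 h of CX-5461 went from 1 to 0 with only the groups compared, and from 4 to 8 h from 2 to 6 with centring or median-ratio factors. For the difference of steps, higher from 2 to 4 h went from 2 to 4 with centring or median-ratio factors and to 1 with no filter, and lower from 0 to 1 with median-ratio factors. For the later step higher went from 3 to 7 with centring and 8 with median-ratio factors, and lower from 1 to 0 with both. With each library left out, the ranges between inhibitors were 0 to 1 higher at 2 h, 3 to 6 higher and 0 to 1 lower at 4 h, and 1 to 2 lower at 8 h. Between times they were 1 to 2 lower from 4 to 8 h of BMH-21, and 0 to 1 lower from 2 to 4 h of CX-5461. For the difference of steps they were 1 to 2 higher from 2 to 4 h and 0 to 1 lower from 4 to 8 h.

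Signs changed as follows. With centring and with median-ratio factors these were Jdp2 at 2 h of CX-5461 (0.037 and 0.073), Fos (-0.024 and -0.052) and Junb (-0.015 and -0.044) between inhibitors at 2 h, and Jun from 4 to 8 h of CX-5461 (-0.28 and -0.27). For the difference between inhibitors in the step from 4 to 8 h they were Junb (0.35 and 0.45) and Jund (0.10 and 0.20). With median-ratio factors alone they were Fosl1 between inhibitors at 2 h (-0.021), Fos from 2 to 4 h of CX-5461 (0.022) and Fosb in the difference of steps from 4 to 8 h (0.10). With a library left out the ranges across 0 were -0.051 to 0.051 for Jund at 8 h of BMH-21 and -0.23 to 0.023 for Jdp2 at 2 h of CX-5461. Between inhibitors at 2 h they were -0.035 to 0.17 for Fos, -0.0062 to 0.24 for Fosl1, -0.00082 to 0.16 for Junb, -0.11 to 0.029 for Jund and -0.18 to 0.087 for Atf3, and at 4 h -0.16 to 0.086 for Fosb. They were -0.063 to 0.19 for Jdp2 from 4 to 8 h of BMH-21, and -0.15 to 0.032 for Fos and -0.033 to 0.043 for Fosb from 2 to 4 h of CX-5461. In the difference of steps from 4 to 8 h they were -0.091 to 0.10 for Fos and -0.051 to 0.19 for Fosl2.

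All-gene counts moved by over 1.5 times with centring and median-ratio factors at 2 h of BMH-21 (2891 to 5285 and 5243), between inhibitors at 2 h (585 to 2261 and 2208) and at 4 h (2617 to 6719 and 6116), and for the difference of steps from 2 to 4 h (488 to 2460 and 2353, and to 280 with no filter and 312 with no trend). Leaving out 1 library gave 2370 to 5592 in place of 4096 at 2 h of CX-5461, 361 to 653 between inhibitors at 2 h and 1687 to 2931 at 4 h.

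Same-numbered replicates did not deviate together: the mean r was -0.02 over 63 pairs (-0.25 to 0.11), and 4 of 21 libraries correlated best with their own number. With the replicate number as a block, 1 of 135 member differences changed its call, that of Fosl2 between inhibitors at 4 h (0.37), and the count of members higher in BMH-21 at 4 h went from 6 to 5.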
